A study of Homo sapiens with 4 samples.

Results

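The genes described here are 8 human Toll-like receptor genes (TLR1, TLR2, TLR3, TLR4, TLR6, TLR7, TLR9 and TLR10), MYD88, which encodes the adaptor most of these receptors signal through, and LY96, which encodes MD-2, the co-receptor of TLR4. They are 10 of the 56809 genes in the table of counts, taken by gene name. The group was chosen by the measured counts: it was selected on TLR4 being among the few genes at least 10-fold higher in the BCL7A knockout (KO) libraries, so the values of the 10 genes in this contrast are given as a description, without a test. RNA with a poly(A) tail was sequenced from NCI-H929, an established human multiple myeloma cell line, in 4 libraries. The 2 BCL7A KO libraries came from Cas9-expressing cells given a KO construct that doxycycline switches on. By the treatment protocol, the 2 control libraries came from Cas9-expressing cells given a control construct. The sample titles and genotype call them wild type, and the labels do not settle which holds. Both groups went through 3 days of puromycin selection and then 24 h with 0.5 ug/ml doxycycline. All values therefore come from a single cell line, and the labels leave unsaid whether replicate libraries stem from separate cultures. The standard deviations below therefore measure how far replicate libraries lay apart. The standard errors and p-values rest on that spread too, partly pooled over genes. That spread may be technical.

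Toll-like receptors are transmembrane proteins that recognise molecules of microbes or of damaged cells. TLR4 with MD-2 binds bacterial lipopolysaccharide at the cell surface, TLR2 paired with TLR1 or TLR6 binds lipoproteins, and TLR3, TLR7 and TLR9 bind nucleic acids in endosomes. All of these but TLR3, which uses TRIF, recruit MYD88, which assembles IRAK kinases and leads to NF-kB activation. B-lineage cells are known for expressing TLR7, TLR9 and TLR10, and mature human B cells for having little TLR4.

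The libraries held 38671744 and 40799624 gene counts in the KO group, against 17567202 and 20153596 in the control group, so depth went with the group. BCL7A, a subunit of SWI/SNF (BAF) chromatin remodelling complexes, had 46 and 44 counts in the KO libraries and 830 and 1014 in the control libraries, which is 1.25 ± 0.0842 CPM in KO cells, against 44.3 ± 1.94 CPM in control cells (counts scaled to library size with TMM factors; SD, n = 2 each). Of the 17885 genes with enough counts to test, 76.2% passed an adjusted p of 0.05 (edgeR's quasi-likelihood test with Benjamini-Hochberg adjustment), with 36.4% higher and 39.8% lower in the KO libraries. These are 6506 and 7123 genes, and with upper-quartile scaling they were 5510 and 8110. In 87.4% of the tested genes the groups did not overlap. For genes that are not members, rose and fell mean past the threshold of 0.05. The labels call the cells B lymphocytes: the 9 plasma cell markers together summed to between 11953 and 11965 CPM in the KO libraries and between 6697 and 6757 CPM in the control libraries, and the 9 B cell markers to between 34.0 and 35.8 CPM in the KO libraries and between 189.6 and 195 CPM in the control libraries. All 9 plasma cell markers rose. Of the B cell markers, 1 rose and 5 fell, and 3 were under 1 CPM in all libraries. CD79B rose and made up most of the KO sum, with 31.1 ± 1.67 CPM in KO cells, against 18.6 ± 2.92 CPM in control cells. CD79A fell to 0.165 ± 0.0726 CPM in KO cells, against 84.5 ± 2.34 CPM in control cells. MS4A1, PAX5, BLNK and FCER2 fell too.

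TLR4, the lipopolysaccharide receptor, was low in the control libraries and clearly detected in the KO libraries. It had 507 and 576 counts in the KO libraries, against 25 and 24 counts in the control libraries. On the CPM scale these are 14.4 and 15.6 in the KO libraries, against 1.29 and 1.08 in the control libraries. Both KO libraries were far above both control libraries, and the libraries of each group were close to each other. The means were 15 ± 0.814 CPM in KO cells, against 1.19 ± 0.15 CPM in control cells, a ratio of 12.6 and a log2 fold change of 3.66 (standard error, SE, 0.16). TLR4 (ENSG00000136869.14) lies on the forward strand of chromosome 9, from 117704175 to 117724730 in GRCh38.

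The choice of TLR4 rested on its being at least 10-fold higher in the KO group. Of the tested genes, 52, or 0.291%, had a ratio of group means that high, and 9, or 0.0503%, did so with at least 5 CPM in the KO group, a limit added here to set aside genes with few counts. In the opposite direction, 478 genes, 2.67%, were at least 10-fold lower in the KO group where the control mean reached 5 CPM. TLR4 had the smallest ratio of those 9. With that limit, just inside were TLR4 at 12.6 and CCND2, which encodes cyclin D2, at 12.8. Just outside, with the same limit, were ID1, a transcriptional inhibitor, at 9.29 and ARRDC4 at 9.27.

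The bases upstream of the RefSeq starts of TLR4, TLR9 and MYD88 are shown because TLR4 is the member with the largest fold change, TLR9 is the most abundant Toll-like receptor transcript per length, and MYD88 is their shared adaptor. Each is the 250 bases before the start, from RefSeq on GRCh38.p14, read 5′ to 3′ on the strand of the gene. They lie at chr9:117704153-117704402 (forward strand), chr3:52225646-52225895 (reverse strand) and chr3:38138411-38138660 (forward strand). The RefSeq starts lie inside the GENCODE spans of these genes given here, so the bases lie partly (TLR4, MYD88) or wholly (TLR9) within those spans. Capitals mark matches, on either strand, to one of 5 motifs searched, named below.
TLR4: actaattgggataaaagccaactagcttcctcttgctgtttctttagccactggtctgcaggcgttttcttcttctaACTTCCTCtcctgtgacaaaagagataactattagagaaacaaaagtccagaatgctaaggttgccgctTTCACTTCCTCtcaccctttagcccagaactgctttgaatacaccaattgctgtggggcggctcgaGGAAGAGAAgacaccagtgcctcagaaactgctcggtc
TLR9: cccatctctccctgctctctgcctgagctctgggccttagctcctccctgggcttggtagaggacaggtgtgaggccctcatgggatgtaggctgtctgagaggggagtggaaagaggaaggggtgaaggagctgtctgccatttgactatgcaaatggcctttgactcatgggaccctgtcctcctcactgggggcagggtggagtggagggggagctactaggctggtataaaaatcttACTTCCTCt
MYD88: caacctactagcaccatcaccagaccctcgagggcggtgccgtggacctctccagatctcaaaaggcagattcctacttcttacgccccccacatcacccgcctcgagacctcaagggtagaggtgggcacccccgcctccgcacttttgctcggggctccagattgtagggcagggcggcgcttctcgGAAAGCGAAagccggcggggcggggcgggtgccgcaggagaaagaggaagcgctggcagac

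A promoter window of 300 bases, which adds the 50 bases after the start, was on hand for 6 of the 10 members (TLR2, TLR3, TLR4, TLR6, TLR9 and MYD88). GGAANNGAA, the composite element of ETS and IRF factors, matched the TLR4 window at 2 places, 104 and 38 bases before the start, and no other of the 6 windows. It was found in 7.79% of all 35116 promoter windows. GAGGAAGT, the binding motif of ETS factors of the PU.1 type, matched the TLR4 window 173 and 101 bases before the start and the TLR9 window 9 bases before the start, and was found in 2.59% of all windows. The TLR4 matches that begin 104 and 101 bases before the start overlap each other. GAAANNGAA, an IRF element, matched the windows of MYD88 (61 bases before the start) and TLR3 (3 bases before the start), and 8.11% of all windows. GGGNNTTTC, a form of the NF-kB motif, and TGACGTCA, the cyclic AMP response element, matched none of the 6 windows and were in 4.78% and 1.85% of all windows. A match is a string of letters and was not measured as a binding site.

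**Figure D1:**
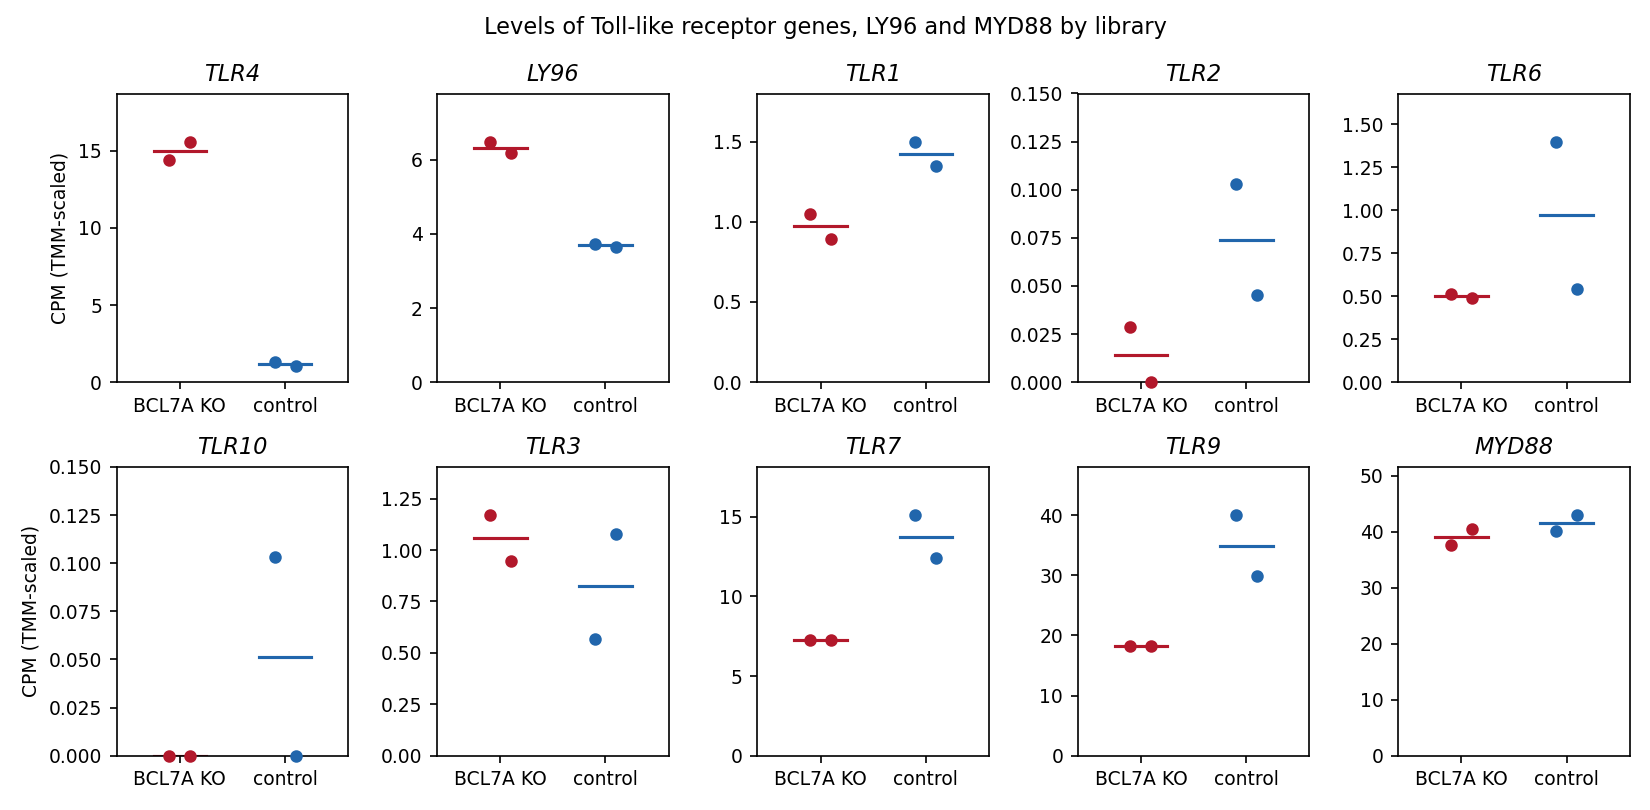
Level of each of the 10 members in every library, in CPM (linear axis from 0, drawn with its own range in each panel), with the BCL7A KO libraries left of the control libraries; points are libraries and horizontal lines are group means. TLR4 and LY96 stand higher in both KO libraries, TLR7 and TLR9 stand lower in both, and MYD88 and TLR3 overlap between the groups.

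LY96, whose protein MD-2 holds the lipid for TLR4, was also higher in the KO libraries, by a smaller factor. It had 228 and 228 counts in the KO libraries and 72 and 81 in the control libraries, which is 6.49 and 6.17 CPM in the KO libraries, against 3.73 and 3.65 CPM in the control libraries. The groups did not overlap. The mean was 6.33 ± 0.228 CPM in KO cells, against 3.69 ± 0.0536 CPM in control cells, a log2 fold change of 0.78 (SE 0.16), and 0.62 when the KO counts were thinned at random to the depth of the control libraries. LY96 lies on chromosome 8, from 73991352 to 74029087 on the forward strand.

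Of 7 receptors and co-receptors outside the members, 3 were tested, and 1 rose and 1 fell. Among all tested genes, 76.2% passed the threshold. TLR5, another Toll-like receptor, had 25 and 26 counts in the KO libraries and 5 and 10 in the control libraries. Its log2 fold change was 0.97 (SE 0.49), and it did not pass (edgeR adjusted p = 0.0756). CD14 and LBP, which deliver lipopolysaccharide to TLR4 and MD-2, had at most 5 and 3 counts in any library. CD180, a TLR4-like receptor of B cells, rose, with 144 and 160 counts in the KO libraries and 50 and 46 in the control libraries, or 4.22 ± 0.162 CPM in KO cells, against 2.33 ± 0.364 CPM in control cells (log2 fold change 0.86, SE 0.19, edgeR adjusted p = 0.000254). LY86 encodes MD-1, the partner that CD180 needs as TLR4 needs MD-2. It fell to 1 and 0 counts in the KO libraries, against 92 and 84 in the control libraries (edgeR adjusted p = 1.05e-13), and was 305 times higher in the control group with a 95% counting interval of 54.1 to 12133. TLR4 and LY96 were thus both higher in the KO group, while of the other pair CD180 was higher and LY86 lower.

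**Figure D2:**
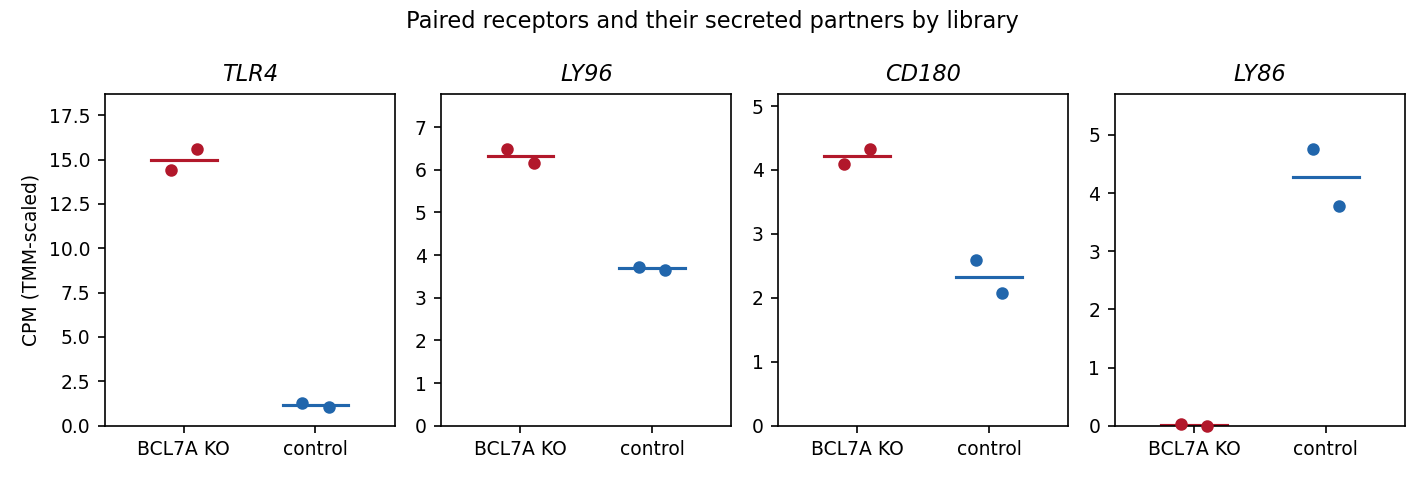
TLR4 with its partner LY96 and CD180 with its partner LY86, in CPM per library (linear axis from 0), BCL7A KO libraries left of control libraries. TLR4, LY96 and CD180 are higher in both KO libraries, and LY86 has 1 and 0 counts there against 92 and 84 in the control libraries.

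Monocytes, macrophages and neutrophils are the cells best known for TLR4, and their markers were examined beside it. The 15 markers summed to between 61.6 and 64.0 CPM in the KO libraries and between 33.1 and 36 CPM in the control libraries. Most of that was CD68, a lysosomal protein that other cells also make, with 57.8 and 56.3 CPM in the KO libraries, against 26.0 and 29.4 CPM in the control libraries. The granulocyte enzymes ELANE and MPO and the monocyte gene FCN1 had 0 counts in every library, and 11 of the 15 markers were under 1 CPM in all 4. Of the 15, 3 rose (CD68, CSF1R and S100A9) and 3 fell (ITGAM, CSF3R and CD33), beside 76.2% past the threshold among all tested genes. FCGR1A was tested and did not pass, and the remaining markers had too few counts to test. ITGAM, an integrin of myeloid cells, had 0.0691 ± 0.0171 CPM in KO cells, against 1.14 ± 0.229 CPM in control cells. CD33 had 2.78 ± 0.218 CPM in KO cells, against 4.41 ± 0.567 CPM in control cells, and CSF3R, the receptor of granulocyte growth factor, had 0 and 1 counts in the KO libraries, against 11 and 8 in the control libraries. CSF1R, the macrophage growth factor receptor, had 20 and 14 counts in the KO libraries and 0 and 0 in the control libraries, and CD14 had 5 and 2 counts in the KO libraries, against 1 and 0 in the control libraries. The part of these genes in the TLR4 values was not tested. In bulk RNA, fewer cells of a type and less RNA per cell cannot be told apart.

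The receptors of lipoproteins at the cell surface were scarce. TLR2 had 1 and 0 counts in the KO libraries and 2 and 1 in the control libraries, and TLR10, a receptor of B cells whose ligands are debated, had 0 and 0 counts in the KO libraries, against 2 and 0 in the control libraries. Both stayed under the limit for testing, and no fold is given. TLR1 had 37 and 33 counts in the KO libraries, against 29 and 30 in the control libraries, or 1.05 and 0.893 CPM in the KO libraries, against 1.5 and 1.35 CPM in the control libraries, with a log2 fold change of -0.55 (SE 0.33). TLR6 had 18 and 18 counts in the KO libraries, against 27 and 12 in the control libraries, or 0.513 and 0.487 CPM in the KO libraries, against 1.4 and 0.541 CPM in the control libraries, with a log2 fold change of -0.92 (SE 0.46). The groups did not overlap for TLR1 or TLR6, but the TLR6 gap rested on few counts: without control replicate 1 its log2 fold change was -0.12, and without control replicate 2 it was -1.49. TLR1 and TLR6 overlap on the reverse strand of chromosome 4 and share 418 stretches of 31 bases (9.1% of those of TLR1 and 6.9% of those of TLR6), so the division of reads between them is uncertain. Summed, an alternative chosen after seeing the data, they had 1.57 and 1.38 CPM in the KO libraries and 2.9 and 1.89 CPM in the control libraries, with a log2 fold change of -0.69 (SE 0.27). TLR1, TLR6 and TLR10 lie next to each other on chromosome 4, at 38790677 to 38856817, 38823715 to 38856817 and 38772239 to 38782990, and TLR2 lies at 153684070 to 153705702.

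The endosomal receptors of B-lineage cells, TLR7 for single-stranded RNA and TLR9 for DNA with unmethylated CpG, had the highest levels per length of the Toll-like receptors in both groups and were lower in the KO libraries. Not divided by length, TLR4 (15 CPM) was above TLR7 (7.26 CPM) in the KO group. TLR7 had 254 and 269 counts in the KO libraries and 292 and 276 in the control libraries, which are 7.23 and 7.28 CPM in the KO libraries, against 15.1 and 12.4 CPM in the control libraries. Both KO libraries were below both control libraries. The mean was 7.26 ± 0.0335 CPM in KO cells, against 13.8 ± 1.89 CPM in control cells (log2 fold change -0.92, SE 0.12). TLR7 lies on chromosome X, from 12867083 to 12890380, and its neighbour TLR8, the other receptor of single-stranded RNA, had at most 2 counts in any library.

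TLR9 had 644 and 674 counts in the KO libraries, against 774 and 662 in the control libraries, or 18.3 and 18.2 CPM in the KO libraries, against 40 and 29.8 CPM in the control libraries. The groups did not overlap, although the control libraries were unlike each other: the mean was 18.3 ± 0.0687 CPM in KO cells, against 34.9 ± 7.23 CPM in control cells (log2 fold change -0.93, SE 0.14). The gene AC097637.1 overlaps TLR9 over almost its whole length, on the same strand of chromosome 3 (52221081 to 52231190, with TLR9 at 52221080 to 52226163), and 85.5% of the 31-base stretches of TLR9 also occur in it. AC097637.1 had 187 and 270 counts in the KO libraries and 88 and 257 in the control libraries, so the control library that was high for TLR9 was low for AC097637.1. The groups overlapped for AC097637.1, and it did not pass (edgeR adjusted p = 0.648). With the counts of both genes summed, an alternative chosen after seeing the data, the values were 23.7 and 25.6 CPM in the KO libraries and 44.6 and 41.4 CPM in the control libraries, a mean of 24.6 ± 1.33 CPM in KO cells, against 43 ± 2.26 CPM in control cells. The log2 fold change of the sum was -0.80, and its SE was 0.06, against 0.14 for TLR9 alone.

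**Figure D3:**
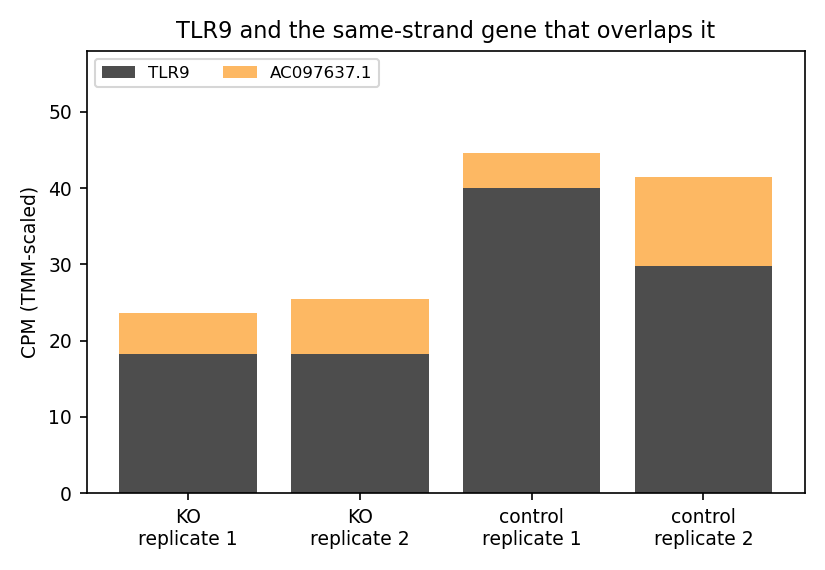
TLR9, the overlapping gene AC097637.1 and their sum, in CPM per library (linear axis from 0), BCL7A KO libraries left of control libraries. The control libraries lie at 40 and 29.8 CPM for TLR9 but at 44.6 and 41.4 CPM for the sum. Both KO libraries lie lower for TLR9 and for the sum. For AC097637.1 the groups overlap, at 5.33 and 7.31 CPM in the KO libraries and 4.55 and 11.6 CPM in the control libraries.

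TLR3, the receptor of double-stranded RNA, was low and overlapped between the groups. It had 41 and 35 counts in the KO libraries and 11 and 24 in the control libraries, or 1.17 and 0.947 CPM in the KO libraries, against 0.569 and 1.08 CPM in the control libraries, with a log2 fold change of 0.33 (SE 0.38). Its sign depended on 1 library, with -0.04 without control replicate 1 and 0.87 without control replicate 2. TLR3 lies on chromosome 4, from 186069152 to 186088069.

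MYD88 had the most counts of the members and the smallest fitted difference. It had 1320 and 1499 counts in the KO libraries and 777 and 955 in the control libraries, or 37.6 and 40.6 CPM in the KO libraries, against 40.2 and 43.0 CPM in the control libraries, and the groups overlapped. The mean was 39.1 ± 2.11 CPM in KO cells, against 41.6 ± 2.0 CPM in control cells (log2 fold change -0.09, SE 0.06). Over the other ways of scaling, filtering and fitting, its log2 fold change lay between -0.23 and -0.01. MYD88 lies on chromosome 3, from 38138478 to 38143022.

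Of the 9 members other than TLR4, 7 had enough counts to enter the fit, and 3 of the 7 were past the threshold of 0.05 that 76.2% of all tested genes passed: LY96 was higher, and TLR7 and TLR9 were lower. The groups did not overlap in 5 of the 7 (1 higher and 4 lower), beside 87.4% of all tested genes. The median log2 fold change of the 7 was -0.55, beside -0.06 over all tested genes. The 7 entered through their counts and were chosen with earlier results known, so these figures describe them and are no test.

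**Figure D4:**
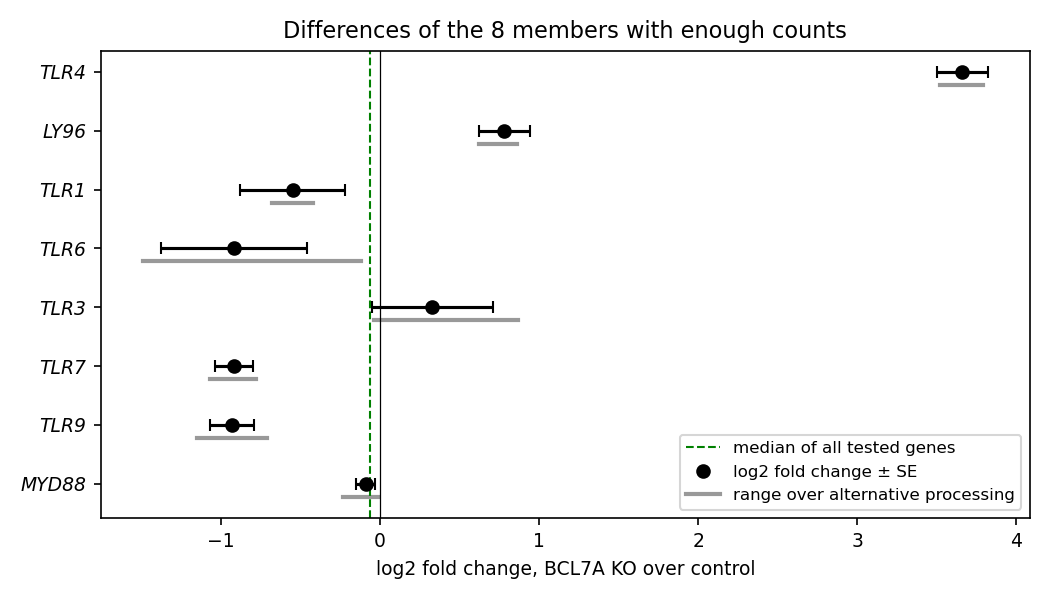
Log2 fold change (BCL7A KO over control) of the 8 members with enough counts to fit, as points with bars of 1 SE, and the range over the alternative settings as lines. TLR4 lies at 3.66, LY96 at 0.78, MYD88 at -0.09, and TLR7 and TLR9 at -0.92 and -0.93, while the ranges of TLR3 and TLR6 are the widest.

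Per length, as CPM per kilobase of the longest transcript, the order of the members differed between the groups. In the KO group the levels were 11.8 ± 0.636 for MYD88, 10.4 ± 0.375 for LY96, 4.73 ± 0.0178 for TLR9, 1.45 ± 0.00669 for TLR7 and 1.17 ± 0.0634 for TLR4, followed by TLR1 at 0.342, TLR3 at 0.176 and TLR6 at 0.085. In the control group they were 12.6 ± 0.603 for MYD88, 9.03 ± 1.87 for TLR9, 6.08 ± 0.0883 for LY96 and 2.75 ± 0.377 for TLR7, followed by TLR1 at 0.501, TLR6 at 0.165, TLR3 at 0.137 and TLR4 at 0.0924. TLR4 was thus in place 5 in the KO group and in place 8 in the control group, where it overlapped with TLR6 and TLR3. The longest transcript was 12853 bases for TLR4 and 5011 bases for TLR7, so their order in the KO group rests on these annotated lengths. MYD88 and LY96 changed places in the KO group, at 9.8 and 10.4, when the union of exons was used as the length. TLR2 and TLR10 were last in both groups.

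Some genes had a pattern over the 4 libraries close to that of TLR4, measured as the Euclidean distance of log2(CPM + 1). TLR4 was chosen on the same 4 libraries, so genes close to it are higher in the KO group by construction. Closeness here means similar levels in each group and is no test. The nearest 5 were AC005833.1 at 0.468, FBN1 at 0.591, FAM72C at 0.602, PALLD at 0.627 and GPAT3 at 0.642. FBN1, which encodes the extracellular matrix protein fibrillin 1, had 12.8 ± 0.283 CPM in KO cells, against 1.7 ± 0.745 CPM in control cells. PALLD, which encodes the actin-associated protein palladin, had 11.7 ± 0.831 CPM in KO cells, against 1.61 ± 0.361 CPM in control cells. GPAT3, an enzyme of glycerolipid synthesis, had 14.2 ± 0.646 CPM in KO cells, against 1.94 ± 0.185 CPM in control cells. AC005833.1 shares its span with other genes on its strand and FAM72C has near-identical copies, so their counts are uncertain.

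The nearest protein-coding genes on each side were compared with their member. Among all tested genes, 36.4% were higher and 39.8% lower past the threshold. ASTN2, which lies 289 kb from TLR4, fell to 6.32 ± 0.6 CPM in the KO group, against 15.2 ± 1.13 CPM in the control group (log2 fold change -1.27, SE 0.12, edgeR adjusted p = 7.07e-11), so it moved opposite to TLR4. BRINP1, 1429 kb on the other side, had at most 5 counts in any library. TMEM70, a mitochondrial assembly factor 8.57 kb from LY96, rose to 80.6 ± 1.17 CPM in the KO group, against 32.0 ± 1.1 CPM in the control group (edgeR adjusted p = 9.5e-20). JPH1, 206 kb from LY96 on the other side, did not pass (log2 fold change 0.18, SE 0.35, edgeR adjusted p = 0.645). ALAS1 and TWF2, on either side of TLR9, both rose, with log2 fold changes of 0.64 (SE 0.05) and 0.33 (SE 0.05), opposite to TLR9. PRPS2, 42.9 kb from TLR7, rose by 0.86 (SE 0.05) on the log2 scale, also opposite to its neighbour. ACAA1, 1.24 kb from MYD88, had a log2 fold change of -0.07 (SE 0.06) and did not pass the test (edgeR adjusted p = 0.262), while OXSR1, 22.1 kb away on the other side, fell by 0.17 (SE 0.04). FAM114A1, 10.9 kb from TLR1 and TLR6, fell by 1.04 (SE 0.19) on the log2 scale, the same direction as the values of both members. KLF3, beside TLR10, TMEM131L, beside TLR2, and FAM149A, beside TLR3, fell by 1.34 (SE 0.12), 2.49 (SE 0.11) and 0.82 (SE 0.12).

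The genes that fold, move and cut the endosomal receptors were examined next, as 1 of 9 lists of pathway genes. All 13 were tested, and 7 rose and 4 fell. The median log2 fold change was 0.11, beside 76.2% past the threshold and a median of -0.06 over all tested genes. UNC93B1, the chaperone that carries TLR3, TLR7 and TLR9 to endosomes, had 57.1 ± 1.52 CPM in KO cells, against 59.4 ± 0.758 CPM in control cells and did not pass (edgeR adjusted p = 0.283). CXorf21, also named TASL, links TLR7 and TLR9 to IRF5, and it fell to 15.5 ± 0.421 CPM in the KO group, against 27.1 ± 1.8 CPM in the control group. These 2 genes were named after their values were seen. The proteases that trim the endosomal receptors were divided. LGMN rose (116 ± 3.26 CPM in KO cells, against 33.4 ± 0.707 CPM in control cells, log2 fold change 1.79, SE 0.05) and so did CTSB (447 ± 2.29 CPM in KO cells, against 152 ± 7.97 CPM in control cells, log2 fold change 1.55, SE 0.03). CTSS fell (101 ± 0.554 CPM in KO cells, against 240 ± 1.25 CPM in control cells, log2 fold change -1.25, SE 0.03). AP3B1, a subunit of the AP-3 sorting complex, rose by 0.87 (SE 0.04) on the log2 scale.

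The adaptors, kinases and ubiquitin enzymes moved both ways: of 24 genes, 10 rose, 11 fell and 3 did not pass, with a median of 0.00. The share past the threshold was 87.5%, beside 76.2% of all tested genes. TRAF3, which restrains non-canonical NF-kB signalling and carries the TRIF branch, fell to 37.6 ± 0.945 CPM in the KO group, against 163 ± 6.11 CPM in the control group (log2 fold change -2.12, SE 0.04, edgeR adjusted p = 3.34e-26). SARM1, an adaptor that opposes TRIF, fell by 2.05 (SE 0.06) on the log2 scale. PELI2, a ubiquitin ligase that acts on IRAK kinases, fell to 0.843 ± 0.186 CPM in the KO group, against 22.8 ± 0.0596 CPM in the control group (log2 fold change -4.74, SE 0.15). IRAK1, which MYD88 recruits, rose to 537 ± 1.54 CPM in the KO group, against 346 ± 6.38 CPM in the control group (log2 fold change 0.63, SE 0.03). The genes that follow were named for their role after their values were seen. IRAK2 rose (log2 fold change 1.24, SE 0.07) and IRAK4, the first kinase on MYD88, fell (-0.29, SE 0.09). TIRAP, which bridges TLR2 and TLR4 to MYD88, fell to 8.73 ± 0.0984 CPM in the KO group, against 14.9 ± 0.845 CPM in the control group (log2 fold change -0.77, SE 0.10).

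Among 12 negative regulators, 3 rose and 5 fell, with a median of 0.00. The share past the threshold was 66.7%, below the 76.2% of all tested genes. TNFAIP3, the deubiquitinase A20 that ends NF-kB signalling, fell to 18.6 ± 0.608 CPM in the KO group, against 48.2 ± 0.365 CPM in the control group (log2 fold change -1.38, SE 0.06). RNF216, a ubiquitin ligase that targets Toll-like receptors for degradation, and TNIP1, a partner of A20, fell by 0.99 (SE 0.07) and 0.38 (SE 0.04) on the log2 scale. PTPN6, the phosphatase SHP-1, rose to 146 ± 0.274 CPM in the KO group, against 80.8 ± 0.246 CPM in the control group.

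All 15 transcription factors of the pathway passed the threshold, and 10 of them fell, beside 76.2% past it and 39.8% lower among all tested genes. The number past the threshold was 11 with the KO counts thinned to control depth and 12 with DESeq2. Their median log2 fold change was -0.29. NFKB1 fell to 31.5 ± 2.63 CPM in the KO group, against 83.9 ± 2.81 CPM in the control group, and RELB to 20.9 ± 0.338 CPM in KO cells, against 55.6 ± 0.627 CPM in control cells, each with a log2 fold change of -1.41 (SE 0.05 and 0.06). IRF5 and IRF7 both act downstream of MYD88. IRF5 fell by 1.14 (SE 0.04) on the log2 scale, and IRF7, named after its values were seen, rose by 0.65 (SE 0.04). IRF3, which acts downstream of TRIF, rose to 153 ± 1.06 CPM in the KO group, against 92.8 ± 1.43 CPM in the control group (log2 fold change 0.72, SE 0.03).

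Of 22 target genes, 14 were tested, and 3 rose, 8 fell and 3 did not pass, beside 76.2% past the threshold among all tested genes. The median log2 fold change was -0.51, but it was -0.09 without control replicate 2, -0.31 without control replicate 1 and 0.11 with no filter on low counts, so it gives no firm direction. The inhibitors of NF-kB that NF-kB itself induces fell: NFKBIA to 36.3 ± 0.0308 CPM in the KO group, against 73.3 ± 5.38 CPM in the control group, and NFKBIE to 3.22 ± 0.685 CPM in KO cells, against 15.8 ± 1.08 CPM in control cells. CCL3, a chemokine that myeloma cells secrete, fell to 245 ± 2.71 CPM in the KO group, against 486 ± 30.8 CPM in the control group (log2 fold change -0.99, SE 0.04). CD40, a costimulatory receptor, fell to 0.418 ± 0.0935 CPM in the KO group, against 6.17 ± 1.96 CPM in the control group (log2 fold change -3.86, SE 0.28). The 3 that rose were IL10, PLAUR and ICAM1. IL10, an anti-inflammatory cytokine, rose to 2.24 ± 0.375 CPM in the KO group, against 0.494 ± 0.253 CPM in the control group (log2 fold change 2.20, SE 0.36). PLAUR, the urokinase receptor, and the adhesion molecule ICAM1 rose by 0.97 (SE 0.21) and 0.35 (SE 0.04) on the log2 scale. These 3 genes were named after their values were seen. IL6 and IL1B had at most 5 and 4 counts in any library.

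**Figure D5:**
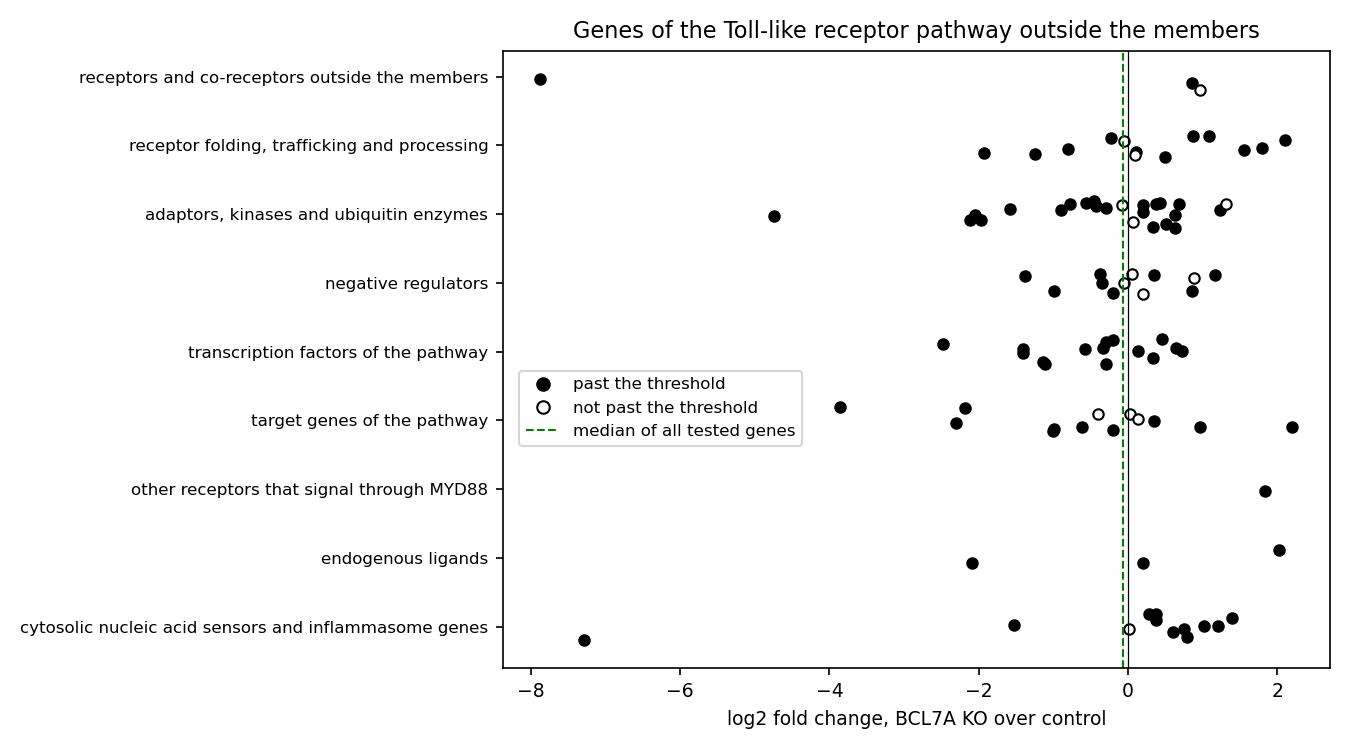
Log2 fold change (BCL7A KO over control) of the tested genes in each of 9 lists of pathway genes, with filled points past the threshold of 0.05 and open points not past it, and the median of all tested genes as a dashed line; the height within a list is only for spacing. Genes with 0 counts in a group (TNF, BGN and PYCARD) are not drawn. In every list with more than 1 drawn gene, points lie on both sides of 0.

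Of the endogenous ligands assigned to TLR2 and TLR4, 4 were tested, and 2 rose and 2 fell. With upper-quartile scaling, and with a stricter filter on low counts, 1 rose and 2 fell. With no filter, 3 rose and 2 fell. Among all tested genes, 36.4% were higher and 39.8% lower past the threshold. HMGB1, a nuclear protein released by damaged cells, rose to 207 ± 0.495 CPM in the KO group, against 181 ± 2.22 CPM in the control group (log2 fold change 0.20, SE 0.03). S100A9, a calcium-binding protein of myeloid cells, rose to 0.998 ± 0.0426 CPM in KO cells, against 0.245 ± 0.0921 CPM in control cells (log2 fold change 2.03, SE 0.50). BGN, which encodes the matrix proteoglycan biglycan, had 0 and 0 counts in the KO libraries and 401 and 463 in the control libraries, and was at least 499.9-fold lower in the KO group with the floor set at 3 counts over the group. BGN overlaps HAUS7 on the opposite strand, and the strand setting of the counting is not given in the sources used here. TNC, which encodes the matrix protein tenascin C, fell by 2.09 (SE 0.14) on the log2 scale.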

How the data were processed

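Poly(A) RNA from 2 BCL7A KO and 2 control libraries was sequenced after a strand-specific preparation, per the labels' protocols. The values the authors deposited are estimated counts for each gene; the submitters' processing notes name Salmon 0.12 and GRCh38. Annotation and strand setting of the counting: not given in the sources used here. Every deposited value was a whole number, so none was rounded. The gene names matched GENCODE release 29, which gave the coordinates, and 92 spike-in (ERCC) rows, none of them above 2 counts in a library, were left out.

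Genes were filtered with filterByExpr, which left 17885, scaled with TMM and fitted with edgeR 4.0.16 (R 4.3.3; glmQLFit with robust shrinkage, glmQLFTest, no covariates), with Benjamini-Hochberg adjustment over all of them and a threshold of 0.05. Rose and fell mean past that threshold. Log2 fold changes are those of the fit, KO over control. Each SE was derived from the fold change and the F statistic of the fit, whose dispersion draws on all genes. For TLR4 it was 0.16, against 0.28 with DESeq2 and 0.25 with limma-voom. Replicate libraries lay further apart than counting error alone would put them (chi-square over its degrees of freedom 1.77 in the KO group and 2.37 in the control group), so no 2 were treated as 1 library deposited again; this does not show that they came from separate cultures. Bounds and counting intervals (exact Clopper-Pearson) cover counting error only. The script was checked on simulated data. DESeq2 1.42.0 and limma 3.58.1 (voom) were alternatives.

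The members and the lists were chosen with earlier results of these data known. The rule for named genes takes every member, up to 4 genes of each list by smallest p, list genes with 0 counts in 1 group and at least 1 CPM in the other, the 5 genes most like TLR4, and the nearest protein-coding neighbours, from which the text gives a selection. The genes most like TLR10 are not given, since TLR10 held 2 counts in all. All 171 entries of the pathway and marker lists matched a row, 1 through another symbol. The markers of endothelial cells and fibroblasts summed to between 98.4 and 99.5 CPM in the KO libraries and between 43.8 and 46.6 CPM in the control libraries, mainly PECAM1. The markers of T and NK cells summed to between 14.4 and 14.6 CPM in the KO libraries and between 28.4 and 30.3 CPM in the control libraries. Alignment of protein sequences was planned and not run here.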

Additional observations from a re-analysis of the deposited data

How the results depend on the processing

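The log2 fold change of TLR4 lay between 3.52 (without control replicate 2) and 3.79 (without control replicate 1) over its 13 alternatives. The count of genes past the threshold was 13629, and ranged over the alternatives between 11685 with DESeq2 and 14837 with no filter. With the replicate number as a block it was 13287. The numbers were not shown to pair the libraries, since deviations of same-numbered libraries had a correlation of -0.01 over 17885 genes. Each list's count of genes past the threshold stayed within 1.5 times in all 126 alternatives, while the median of the target genes ranged between -0.64 with upper-quartile scaling and 0.11 with no filter. The limit of 1.5 times is wide for lists this short and ignores direction, so staying within it says little. The transcription factors, 15 in the reported fit and 11 with the KO counts thinned, were within it. Of 106 alternative values of single members, 101 moved by less than the spread between replicates, and 5 moved by more (4 of LY96 and 1 of MYD88). The cause was not tested. Leaving out 1 of 2 replicates nearly always shifts a group mean by less than that spread, so those alternatives could hardly count as moved. TLR6, at -0.92 in the reported fit and -0.12 without control replicate 1, was not counted as moved. The tally therefore does not measure how far the values depend on single libraries. TLR3 changed sign without control replicate 1. MYD88, not past the threshold in the reported fit, was past it under 3 of 13 alternatives, and TLR6 under 2 of 12. The range was 0.62 to 0.86 for LY96, -1.07 to -0.78 for TLR7, -1.15 to -0.71 for TLR9 and -0.68 to -0.42 for TLR1. Upper-quartile scaling shifted the median of all genes by -0.13 on the log2 scale, so smaller differences depend on the scaling. Depth limits TLR2 and TLR10, where 3 counts over a group amount to 0.0416 CPM in KO cells, against 0.0723 CPM in control cells.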

Other observations

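Sensors of nucleic acids in the cytosol were measured too. Of 15 cytosolic sensors and inflammasome genes, 13 were tested, and 9 rose and 3 fell. The median log2 fold change was 0.38, beside 76.2% past the threshold and a median of -0.06 over all tested genes. ZBP1, a sensor of left-handed nucleic acids, rose to 301 ± 0.391 CPM in the KO group, against 114 ± 4.95 CPM in the control group (log2 fold change 1.40, SE 0.03). TRIM25, a ubiquitin ligase that acts on RIG-I, rose to 243 ± 3.32 CPM in the KO group, against 119.6 ± 0.648 CPM in the control group. MAVS, the adaptor of the RNA helicases, rose by 0.38 (SE 0.03) on the log2 scale. The inflammasome adaptor PYCARD had 0 and 0 counts in the KO libraries and 60 and 71 in the control libraries, and was at least 75.8-fold lower in the KO group with the floor at 3 counts over the group. NOD2, a sensor of bacterial wall fragments, had 0 and 1 counts in the KO libraries and 53 and 65 in the control libraries, and was named after its values were seen.

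Of 6 other receptor genes that signal through MYD88, the receptors of interleukin 1, interleukin 18 and interleukin 33 among them, IL1RAP was the one with enough counts to test. IL1RAP, the shared accessory chain of the interleukin 1 family, rose to 57.2 ± 2.06 CPM in the KO group, against 16.1 ± 0.789 CPM in the control group (log2 fold change 1.83, SE 0.06, edgeR adjusted p = 2.08e-20). IL1R1, its partner for interleukin 1, had at most 3 counts in any library.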
